A study of Mus musculus with 18 samples.

Results

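Cytochrome P450 enzymes of families 1 to 4 were followed through RNA libraries of the mouse colonic epithelium. The group was defined by name: protein-coding genes of the deposited count table whose symbol is Cyp, a family number from 1 to 4, a subfamily letter and a gene number. The rule found 76 genes among the 54532 genes of the table. Of these, 36 had enough counts to be tested, 25 were counted but fell below the filter on low counts, and 15 had no count in any of the 18 libraries. The 3 genotypes were BL6J wild type, Rab11-FIP1 KO (FIP1 knockout below) and Rab11-FIP2 KO (FIP2 knockout). Distal and proximal colon were taken separately, which makes 6 groups of 3 libraries. Rab11-FIP1 and Rab11-FIP2 are adaptors of the small GTPase Rab11, which directs recycling endosomes to the apical surface of epithelial cells. The labels record no treatment, and the age and sex of the mice and the part of each gene that was deleted are not given in the sources used here. Epithelial cells were collected with micro forceps from colon held in PBS with 30 mM EDTA, and mRNA was captured on poly-T beads. Whether replicate libraries stem from different animals is not stated in the labels. The p-values therefore cover only the spread among these libraries, and this spread may be technical.

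P450 enzymes sit in the endoplasmic reticulum, hold a haem group and take electrons from P450 reductase to insert an oxygen atom into their substrates. Family 1 acts on aromatic pollutants and is switched on through the aryl hydrocarbon receptor Ahr. Families 2 and 3 oxidise drugs, steroids and arachidonic acid, and many of their genes respond to the nuclear receptors Pxr and Car. Family 4 hydroxylates the far end of fatty acids and eicosanoids, and part of it responds to Ppara. The liver holds most of this capacity, and the gut epithelium holds its own set, which meets dietary and microbial compounds first.

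The libraries held between 11193308 and 22062300 counts, and 17692 genes entered the test. Levels are given as CPM (counts scaled to the TMM-adjusted library size), with the 3 values of a group always in the order of its libraries 1, 2 and 3. A gene is said to rise, fall or change only where edgeR's quasi-likelihood test gave a Benjamini-Hochberg adjusted p under 0.05 over all tested genes, and fold changes are log2 with their standard error (SE). The targeted genes fell in their own knockouts: Rab11fip1 by 1.25 and Rab11fip2 by 1.07 on the log2 scale in the distal colon. The same comparison of proximal colon gave Rab11fip1 log2 fold change -1.03 ± 0.22 SE, adjusted p = 0.00365, and Rab11fip2 log2 fold change -0.84 ± 0.28 SE, adjusted p = 0.0469. The Rab11fip2 call was lost in the distal colon without FIP2 library 1 (log2 fold change -0.87, adjusted p = 0.0609) and in the proximal colon without wild-type library 2 or 3 or FIP2 library 1, 2 or 3 (log2 fold change -0.95 to -0.60, adjusted p 0.0671 to 0.147). The 7 epithelial markers were all detected. In the distal colon they summed to 8335 to 10085 CPM in wild type and 10632 to 14093 CPM in the knockouts. In the proximal colon they summed to 9676 to 10960 CPM in wild type and 11165 to 13215 CPM in the knockouts. The 7 goblet cell markers summed to 19412 to 22075 CPM in wild-type and 12436 to 18948 CPM in knockout distal colon, and overlapped in the proximal colon. The 9 markers of T and innate lymphocytes summed to 23.8 to 142 CPM in the knockouts and 6.39 to 16.1 CPM in wild type, and the 7 proliferation markers to 462 to 719 and 213 to 501 CPM. The 7 markers of B and plasma cells summed to 29.6 to 428 CPM in the knockouts and 6.27 to 36.1 CPM in wild type, and in the distal colon the 6 neutrophil markers (2 tested) to 200.9 to 279.6 and 76.8 to 171 CPM. The share of counts from mitochondrially encoded genes was 18.1% to 32.3% in wild type and 11.2% to 20.1% in the knockouts. The part of these differences in the results below was not tested. In such bulk samples, fewer cells of a type and less RNA per cell cannot be told apart.

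The summed level of the P450 genes was higher in the proximal than in the distal libraries of each genotype, and in the proximal colon it was lower in both knockouts than in wild type. No test was made of these sums. In wild-type proximal colon the 76 genes summed to 11678 ± 1745 CPM (mean ± SD, n = 3; range 10137 to 13573). The sum was 5214 ± 1160 CPM in FIP1 knockout and 6776 ± 1851 CPM in FIP2 knockout proximal colon, and in each group all 3 libraries lay below the lowest wild-type library. In the distal colon it was 3438 ± 1317 CPM in wild type, 2125 ± 272 CPM in FIP1 knockout and 1889 ± 475 CPM in FIP2 knockout, with overlapping libraries. Most of the proximal sum was 1 gene. Cyp2c55 made up 75.3% to 79.2% of the P450 counts in wild-type proximal libraries, 60.5% to 65.6% in FIP1 knockout and 67.6% to 75.3% in FIP2 knockout. Its distal share was 31.6% to 48.6% in wild type, 21.6% to 34.4% in FIP1 knockout and 10.6% to 25.1% in FIP2 knockout. Without Cyp2c55 the proximal sums were 2690 ± 203, 1918 ± 565 and 1837 ± 341 CPM, and the distal sums 2030 ± 750, 1539 ± 88.3 and 1529 ± 273 CPM, in wild type, FIP1 knockout and FIP2 knockout. The stacked plot of summed levels shows the same by library.

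**Figure D1:**
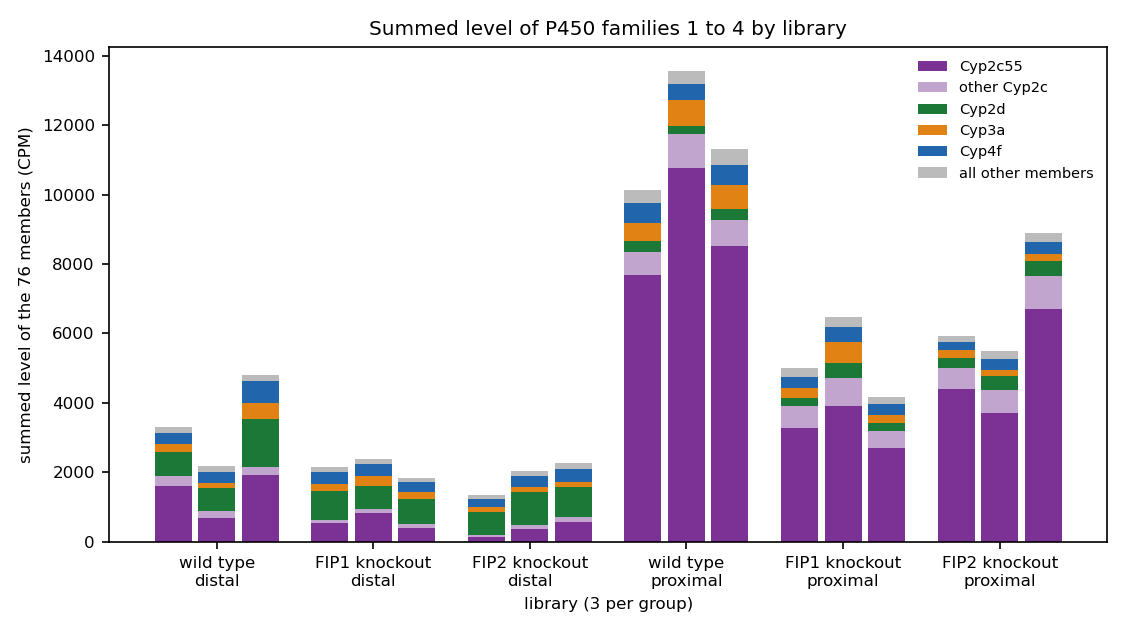
Summed level of the 76 P450 genes in each library (CPM, linear axis from 0), 3 bars per group, split into Cyp2c55, the other Cyp2c genes, Cyp2d, Cyp3a, Cyp4f and all remaining members. The wild-type proximal bars reach 10137 to 13573 CPM, and Cyp2c55 is the largest block in every proximal bar.

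Expression was spread unevenly over the subfamilies. The tested genes were 7 of 15 Cyp2c, 6 of 8 Cyp2d, 4 of 7 Cyp3a, 6 of 9 Cyp4f and 2 of 8 Cyp2j genes, Cyp2a12 alone of 4 Cyp2a genes, and the single genes Cyp1b1, Cyp2f2, Cyp2r1, Cyp2s1, Cyp2t4, Cyp2u1, Cyp2w1, Cyp4b1, Cyp4v3 and Cyp4x1. None of the 5 Cyp2b or 5 Cyp4a genes, the classical Car and Ppara targets of the liver, passed the filter, and neither did Cyp1a1, Cyp1a2 or Cyp2e1. Cyp1a1, the usual readout of Ahr activity, had 2 counts in 1 library, and Cyp1a2 had none. The highest group mean of an untested gene was 1.32 CPM, for Cyp4f15. Genes without a count in any library were Cyp1a2, Cyp2a4, Cyp2b13, Cyp2b23, Cyp2c37, Cyp2c38, Cyp2c39, Cyp2c50, Cyp2c54, Cyp2j12, Cyp2j7, Cyp3a16, Cyp4a14, Cyp4a29 and Cyp4a31. A count of 0 over a group of 3 libraries allows up to 3 counts, and these floors and the counting intervals given below cover counting error only.

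Per transcript length (FPKM, means of 3 libraries), the order of the genes differed between segments. In wild-type proximal colon Cyp2c55 led with 4027 ± 369 FPKM (SD), followed by Cyp2c65 with 344 ± 34.5, Cyp3a13 with 192, Cyp4f14 with 117, Cyp4b1 with 110 ± 48.4 and Cyp2d34 with 83.9 FPKM. In wild-type distal colon Cyp2c55 (700 ± 331 FPKM) and Cyp2d34 (377 ± 150 FPKM) stood at the top, then Cyp4f16 with 116, Cyp2c68 with 112 ± 27.5, Cyp3a13 with 88.8 and Cyp2d10 with 80.0 FPKM. No gene was tested against another in either segment, and both orders are a description of the means. In knockout distal colon the means of the leading pair stood the other way round: Cyp2d34 had 349 ± 57.0 and Cyp2c55 314 ± 93.4 FPKM in FIP1 knockout, a gap within the spread, and Cyp2d34 had 314 ± 19.4 and Cyp2c55 183 ± 103 FPKM in FIP2 knockout. These pairs were not tested against each other. Proximal knockout colon kept Cyp2c55 first, with 1645 ± 133 FPKM in FIP1 and 2460 ± 646 FPKM in FIP2 knockout, and Cyp2c65 second, with 324 and 376 FPKM.

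**Figure D2:**
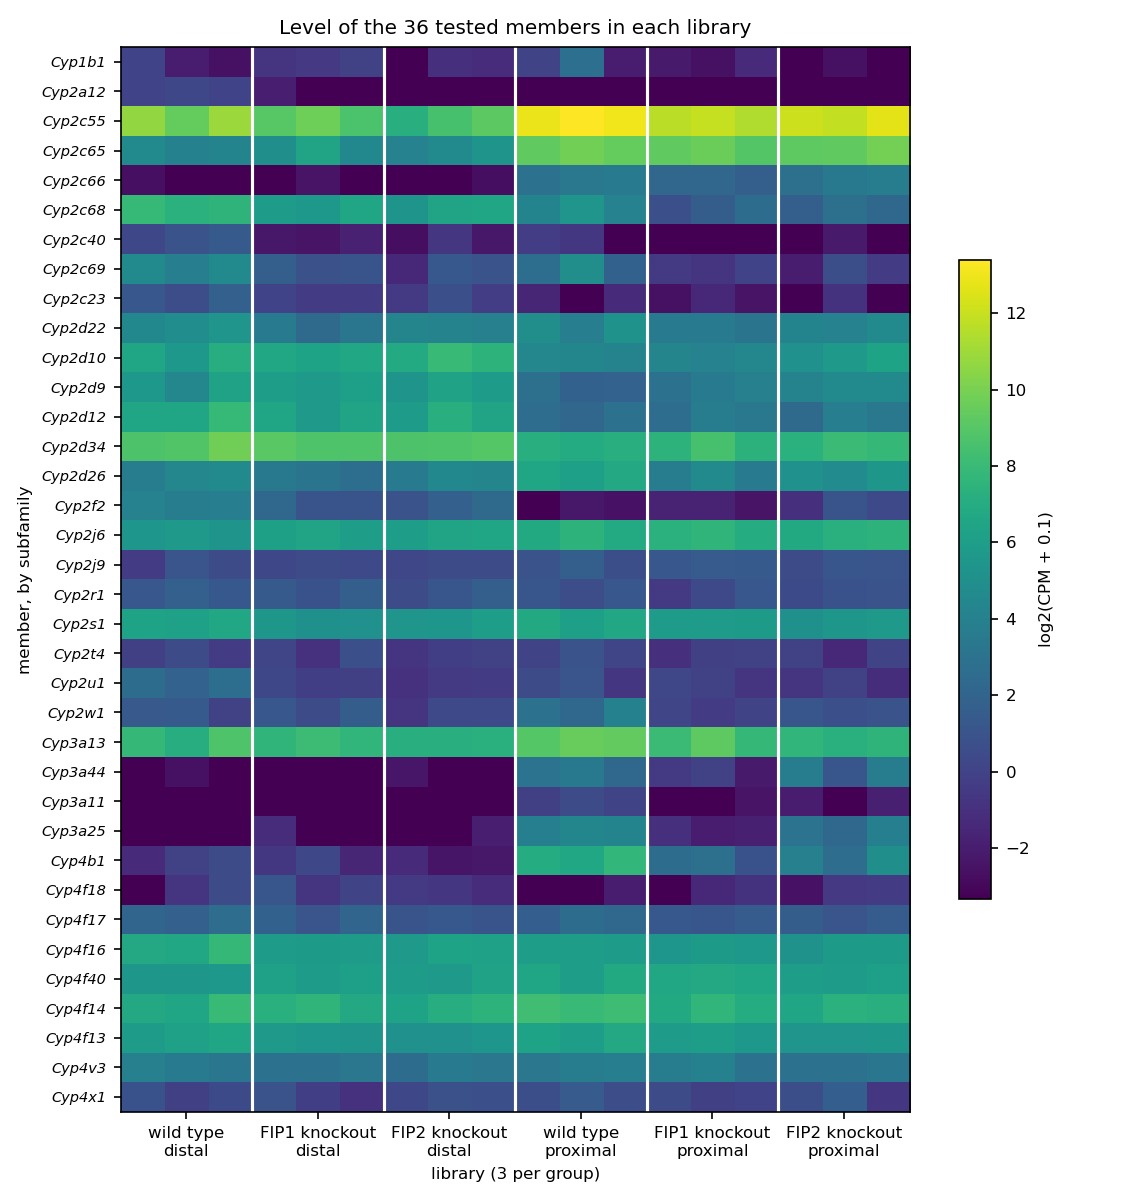
Level of the 36 tested P450 genes (rows, by subfamily) in each of the 18 libraries (columns, 3 per group), as log2(CPM + 0.1) from dark (low) to yellow (high). Cyp2c55 is the brightest row, and the rows of Cyp2c66, Cyp3a44, Cyp3a25 and Cyp4b1 are dark in the distal and lighter in the wild-type proximal libraries.

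Knockout against wild type moved more P450 genes down than up in both segments. In FIP1 knockout distal colon 3 of the 76 genes rose and 12 fell (36 tested), where 8.84% and 7.47% of all tested genes did. In FIP1 knockout proximal colon 1 rose and 15 fell, against backgrounds of 6.7% and 6.89%. In FIP2 knockout distal colon 2 rose and 11 fell, against 9.13% and 9.38%, and in FIP2 knockout proximal colon 3 rose and 11 fell, against 7.6% and 7.07%. The median log2 fold change of the 36 tested genes was -0.38 and -0.77 for FIP1 knockout and -0.49 and -0.54 for FIP2 knockout, in distal and proximal colon, while that of all tested genes lay between -0.02 and 0. Those 36 genes passed the filter partly through the group in which they were high, so these medians describe them and not the family as a whole. Both knockouts were compared with the same wild-type libraries within a segment, so the FIP1 and FIP2 values set side by side here share their controls. The same genes are shown with their errors in the plot of changes in each knockout.

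**Figure D3:**
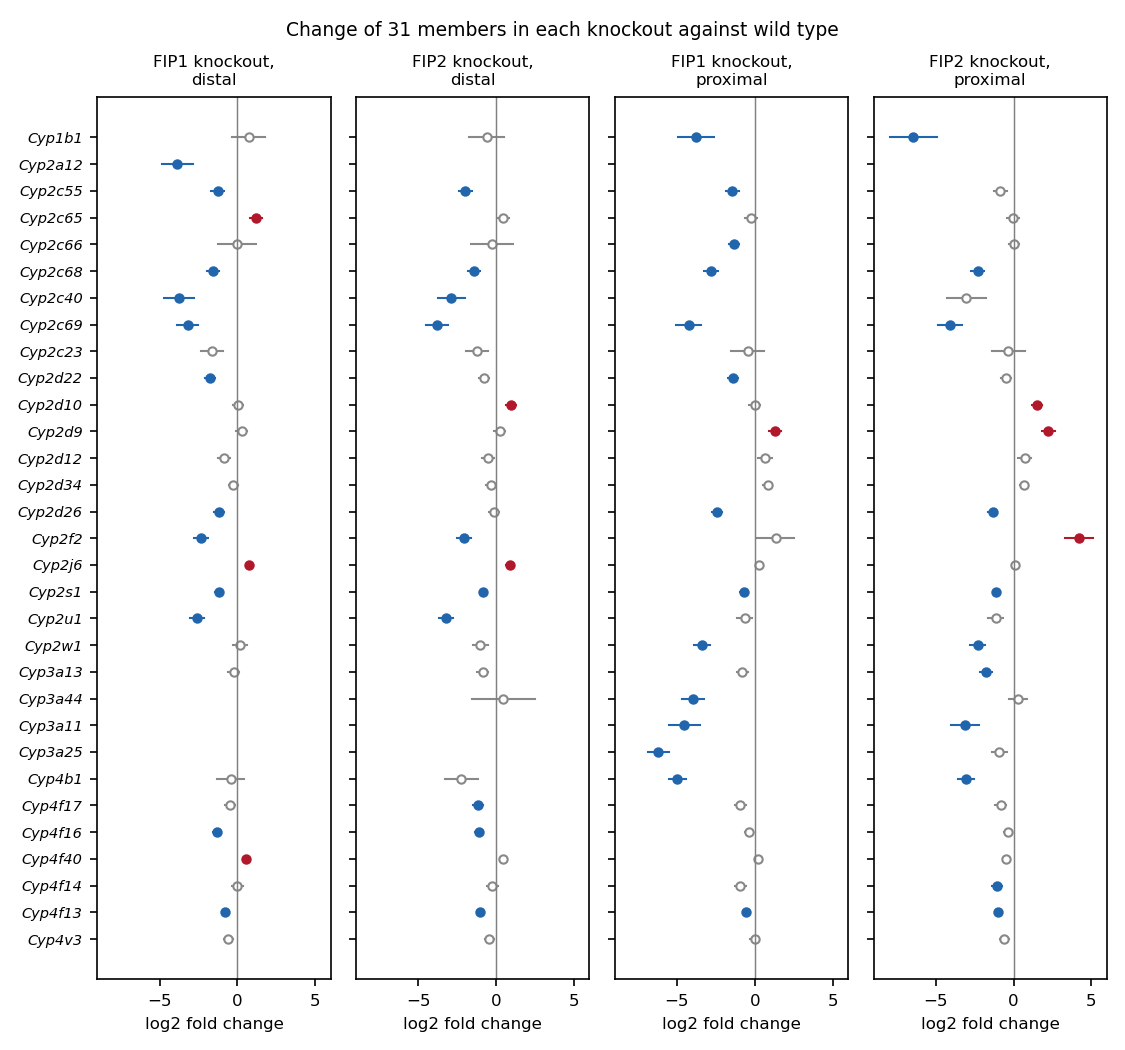
log2 fold change (horizontal axes, points, with bars of ± 1 SE) of the 31 P450 genes that changed in at least 1 comparison or reached a group mean of 5 CPM, for each knockout against wild type in each segment. Filled blue points fell and filled red points rose (adjusted p under 0.05), open grey points did not pass, and no point is drawn where a group had no count; blue points outnumber red ones in all 4 panels.

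Between segments, wild-type epithelium showed 12 P450 genes higher in the proximal and 10 higher in the distal colon (36 tested), where 8.96% and 7.39% of all tested genes were called. The proximal set was Cyp2c55, Cyp2c65, Cyp2c66, Cyp2d26, Cyp2j6, Cyp2w1, Cyp3a11, Cyp3a13, Cyp3a25, Cyp3a44, Cyp4b1 and Cyp4f40, and the distal set Cyp2a12, Cyp2c23, Cyp2c68, Cyp2d10, Cyp2d12, Cyp2d34, Cyp2d9, Cyp2f2, Cyp2u1 and Cyp4f16. In FIP1 knockout 6 were higher in each segment (background 2.94% proximal and 3.65% distal), and in FIP2 knockout 8 were higher in the proximal and 6 in the distal colon (background 4.99% and 4.49%). That fewer were called in the knockouts does not show that the segments differed less there. The test of that difference is given with the comparison of effects between segments.

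The Cyp2c genes of chromosome 19 included 3 that were higher in the proximal and 1, Cyp2c68, that was higher in the distal colon of every genotype. Cyp2c55 (chr19:39007019-39042693, + strand), Cyp2c65 (chr19:39061015-39093944, + strand) and Cyp2c66 (chr19:39113898-39187072, + strand) lie side by side on the + strand and were higher in the proximal colon of all 3 genotypes. Cyp2c68 (chr19:39688834-39741054, - strand), Cyp2c40 (chr19:39767071-39812814, - strand) and Cyp2c69 (chr19:39842660-39886769, - strand) lie further along on the - strand. Cyp2c40 and Cyp2c69 had higher means in the distal colon, but edgeR's fit to all 18 libraries called neither between segments in any genotype. In FIP1 knockout edgeR called Cyp2c69 with the compared libraries alone (log2 fold change -1.71, adjusted p = 0.0375) and without the filter on low counts (-1.69, adjusted p = 0.000155). In wild type limma on log2(FPKM + 1) called Cyp2c40 (adjusted p = 0.0023). Coordinates are those of the deposited table, on GRCm38. Cyp2c55 and its relatives oxidise arachidonic acid and other fatty acids in the gut. The 250 bases before the RefSeq start of each of the 6 genes (GRCm38.p6) are shown because the 3 genes on the + strand were called higher in the proximal and Cyp2c68 higher in the distal colon, beside its close relatives Cyp2c40 and Cyp2c69, with CAAAGTCCA, the core of an element bound by Hnf4 factors, in capitals. This motif was chosen after the sequences were seen.
Cyp2c55, chr19:39006769-39007018, + strand: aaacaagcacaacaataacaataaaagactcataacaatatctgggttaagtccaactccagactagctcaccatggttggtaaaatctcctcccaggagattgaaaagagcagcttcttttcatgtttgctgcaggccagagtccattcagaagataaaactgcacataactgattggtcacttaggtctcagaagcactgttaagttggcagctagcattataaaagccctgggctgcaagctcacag
Cyp2c65, chr19:39060756-39061005, + strand: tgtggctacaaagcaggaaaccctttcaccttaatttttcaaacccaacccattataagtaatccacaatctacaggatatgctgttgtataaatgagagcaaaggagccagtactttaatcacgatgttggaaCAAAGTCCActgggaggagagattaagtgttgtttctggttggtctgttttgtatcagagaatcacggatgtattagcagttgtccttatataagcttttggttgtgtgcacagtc
Cyp2c66, chr19:39113648-39113897, + strand: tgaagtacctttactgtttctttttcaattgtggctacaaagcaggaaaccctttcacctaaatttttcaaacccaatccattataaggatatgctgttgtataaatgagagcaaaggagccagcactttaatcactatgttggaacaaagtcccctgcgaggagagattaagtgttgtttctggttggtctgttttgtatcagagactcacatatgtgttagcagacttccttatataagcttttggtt
Cyp2c68, chr19:39741102-39741351, - strand: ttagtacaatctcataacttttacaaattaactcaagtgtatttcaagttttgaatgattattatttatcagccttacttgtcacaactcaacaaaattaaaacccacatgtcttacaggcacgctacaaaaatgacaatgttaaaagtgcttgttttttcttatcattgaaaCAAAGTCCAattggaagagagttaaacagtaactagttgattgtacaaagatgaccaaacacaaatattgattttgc
Cyp2c40, chr19:39812815-39813064, - strand: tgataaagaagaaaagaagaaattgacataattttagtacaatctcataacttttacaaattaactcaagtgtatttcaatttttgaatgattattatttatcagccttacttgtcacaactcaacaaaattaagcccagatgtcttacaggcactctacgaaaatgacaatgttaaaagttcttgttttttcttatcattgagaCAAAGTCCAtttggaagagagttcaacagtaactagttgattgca
Cyp2c69, chr19:39886770-39887019, - strand: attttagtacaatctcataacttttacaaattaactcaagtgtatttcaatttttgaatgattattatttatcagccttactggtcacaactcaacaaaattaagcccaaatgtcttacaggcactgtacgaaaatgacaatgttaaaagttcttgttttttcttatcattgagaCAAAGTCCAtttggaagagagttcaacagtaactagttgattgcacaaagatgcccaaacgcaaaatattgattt

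All 6 sequences read 5′ to 3′ on the gene's strand and end at the base before the start. CAAAGTCCA, searched on both strands, stood in the promoters of Cyp2c65 (its first base at -116), Cyp2c68 (-77), Cyp2c40 (-45) and Cyp2c69 (-75), counted from the start, and not in those of Cyp2c55 and Cyp2c66. It was present in 8 of the 63 P450 genes with a promoter in the RefSeq table, and in 126 of 32536 promoters of all genes (0.387%). Because the motif was picked from these sequences and its carriers include close relatives, nothing is read from these shares. The Cyp2c66 promoter holds caaagtccc, which differs from the motif in its last base only. Cyp2c65, higher in the proximal colon, and Cyp2c68, higher in the distal colon, both held CAAAGTCCA. TATAAA, the TATA box, stood at -29 in Cyp2c55 and was found in 24 of the 63 and in 12.3% of all promoters. As a share of the whole window, the promoters of Cyp2c65 and Cyp2c66 were 83.2% identical. Those of Cyp2c68 and Cyp2c69 were 92.8% and those of Cyp2c40 and Cyp2c69 86.8% identical, while Cyp2c55 matched the other 5 at 52.0% to 57.2%. The windows of related genes are offset where their annotated starts differ, as with CAAAGTCCA at -45 in Cyp2c40 and -75 in Cyp2c69. Bases left without a partner lower these percentages, so they do not rank the pairs by similarity of the shared sequence. A match describes letters in this window and does not show that a factor binds there.

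Cyp2c55 fell in FIP1 knockout in both segments and in FIP2 knockout in the distal colon. Its distal levels were 1612, 689.6 and 1924 CPM in wild type, 539, 821 and 398 in FIP1 knockout and 144, 368 and 569 in FIP2 knockout. Its proximal levels were 7682, 10753 and 8530.2 CPM in wild type, 3275, 3913 and 2699.6 in FIP1 knockout and 4399, 3719 and 6697 in FIP2 knockout. Every knockout library in the proximal colon lay below every wild-type one, and in the distal colon FIP1 knockout overlapped with wild type while FIP2 knockout did not. The fall was 2.73-fold in FIP1 knockout proximal colon (log2 fold change -1.45 ± 0.42 SE, adjusted p = 0.0273) and 3.91-fold in FIP2 knockout distal colon (log2 fold change -1.97 ± 0.43 SE, adjusted p = 0.00363). FIP1 knockout distal colon gave log2 fold change -1.27 ± 0.42 SE, adjusted p = 0.0451, and FIP2 knockout proximal colon, which did not pass, log2 fold change -0.86 ± 0.42 SE, adjusted p = 0.17. The proximal FIP1 call was lost without wild-type library 2 or FIP1 library 1 or 3 (log2 fold change -1.42 to -1.29, adjusted p 0.0684 to 0.0964), and the distal FIP1 call without wild-type library 1 or 3 or FIP1 library 1 or 3 (log2 fold change -1.21 to -0.98, adjusted p 0.11 to 0.182). Proximal over distal was 6.38-fold in wild type (log2 fold change 2.67 ± 0.44 SE, adjusted p = 0.000221), 5.63-fold in FIP1 knockout and 13.7-fold in FIP2 knockout.

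Cyp2c65, a relative expressed in the gut, had a strong segment difference and little difference between genotypes in the proximal colon. Its levels there were 634, 901 and 695 CPM in wild type, 626, 780.2 and 481 in FIP1 knockout and 602, 639 and 945 in FIP2 knockout, with all 3 groups overlapping. Neither knockout passed there (log2 fold change -0.24, adjusted p = 0.749 for FIP1 and -0.03, adjusted p = 0.972 for FIP2). In the distal colon the levels were 25.5, 16.4 and 18.4 CPM in wild type, 31.3, 84.9 and 22 in FIP1 knockout and 16.9, 25.3 and 40.9 in FIP2 knockout, so 1 FIP1 knockout library stood well above the rest. Cyp2c65 rose in FIP1 knockout distal colon (log2 fold change 1.19 ± 0.39 SE, adjusted p = 0.0453), and this was lost without wild-type library 1, 2 or 3 or FIP1 library 2 (log2 fold change 0.39 to 1.39, adjusted p 0.0554 to 0.519). DESeq2 gave adjusted p = 0.0615 for it, and a fit to the compared libraries alone 0.0637. The same FIP1 library 2 was the highest distal library in the 7 small-intestine enterocyte markers, at 433 CPM against 129 to 241 in the other 8, and in the 8 markers of absorptive colonocytes, at 12244 CPM against 4843 to 11926, and their part in this rise was not tested. Proximal over distal was 36.9-fold in wild type (log2 fold change 5.21 ± 0.46 SE, adjusted p = 1.92e-07), 13.7-fold in FIP1 and 26.3-fold in FIP2 knockout. Cyp2c66 was almost silent in the distal colon, with 0 to 0.0824 CPM over the 9 libraries. Its proximal levels were 7.92, 10.3 and 12.4 CPM in wild type, 4.41, 4.44 and 3.27 in FIP1 knockout and 7.11, 10.8 and 13 in FIP2 knockout. Cyp2c66 fell in FIP1 knockout proximal colon (log2 fold change -1.34 ± 0.34 SE, adjusted p = 0.013), where no library reached the wild-type range, and did not pass in FIP2 knockout (0.01, adjusted p = 0.984). That fall was lost without wild-type library 3 or FIP1 library 3 (log2 fold change -1.21 to -1.17, adjusted p 0.0569 to 0.0608). Its proximal counts exceeded the distal ones 462-fold (95% counting interval 82.5 to 18312) in wild type. Cyp2c65 and Cyp2c66 share 96.3% of their coding bases, so reads could be split between them and the level of Cyp2c66 is uncertain.

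Cyp2c68 and Cyp2c69 fell in both segments of both knockouts, and Cyp2c40 in 3 of these 4 comparisons. Cyp2c68 had 230.3, 166 and 188 CPM in wild-type, 57.8, 47.6 and 88.7 in FIP1 knockout and 39.4, 86.2 and 89.7 in FIP2 knockout distal colon. In the proximal colon it had 18.6, 41.3 and 16.6 CPM in wild type, 1.6, 2.94 and 5.97 in FIP1 knockout and 3.29, 6.99 and 4.88 in FIP2 knockout, and in neither segment did a knockout library reach the wild-type range. Cyp2c68 fell 3.01-fold and 6.96-fold in FIP1 knockout (distal log2 fold change -1.59 ± 0.39 SE, adjusted p = 0.00885; proximal log2 fold change -2.80 ± 0.44 SE, adjusted p = 0.000303). In FIP2 knockout it fell 2.72-fold and 4.98-fold (distal log2 fold change -1.44 ± 0.39 SE, adjusted p = 0.0147; proximal log2 fold change -2.32 ± 0.43 SE, adjusted p = 0.00165), and the distal FIP2 call was lost without FIP2 library 1 (log2 fold change -1.15, adjusted p = 0.0729). It was 7.7-fold lower in the proximal than in the distal colon of wild type (log2 fold change -2.95 ± 0.42 SE, adjusted p = 4.78e-05), and 17.8-fold and 14.1-fold lower in FIP1 and FIP2 knockout.

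The falls of Cyp2c69 passed in all 4 comparisons and also without any single library. It had 24.4, 14.1 and 24.7 CPM in wild-type distal colon, 3.22, 1.65 and 1.91 in FIP1 knockout and 0.258, 2.38 and 1.86 in FIP2 knockout. The proximal values were 6.38, 30.9 and 3.6 CPM in wild type, 0.602, 0.501 and 0.915 in FIP1 knockout and 0.153, 1.49 and 0.697 in FIP2 knockout, with library 2 highest among the wild-type ones. Cyp2c69 fell 9.18-fold and 19.1-fold in FIP1 knockout (distal log2 fold change -3.20 ± 0.69 SE, adjusted p = 0.00373; proximal log2 fold change -4.26 ± 0.78 SE, adjusted p = 0.00109). It fell 13.9-fold and 16.7-fold in FIP2 knockout (distal log2 fold change -3.80 ± 0.71 SE, adjusted p = 0.0012; proximal log2 fold change -4.06 ± 0.77 SE, adjusted p = 0.00183). The size of the proximal falls depended on single libraries. With 1 library left out, the log2 fold change ranged from -4.71 to -2.82 in FIP1 and from -4.86 to -2.62 in FIP2 knockout proximal colon. Cyp2c68 and Cyp2c69 share 96.5% of their coding bases and each 97.1% or more with Cyp2c67, which was counted at a group mean of at most 0.652 CPM, so the split of reads among these 3 is uncertain. Cyp2c40, an arachidonic acid hydroxylase of the lower gut, was low throughout, with 1.11, 1.8 and 2.61 CPM in wild-type, 0.109, 0.0824 and 0.185 in FIP1 knockout and 0.0517, 0.539 and 0.113 in FIP2 knockout distal colon. Proximal colon gave 0.727, 0.549 and 0 CPM in wild type, 0 in all 3 FIP1 knockout libraries and 0, 0.129 and 0 in FIP2 knockout. It fell in FIP1 knockout distal colon (log2 fold change -3.76 ± 0.97 SE, adjusted p = 0.0137), at least 6.95-fold in FIP1 knockout proximal colon (adjusted p = 0.0311), and in FIP2 knockout distal colon (log2 fold change -2.88 ± 0.87 SE, adjusted p = 0.0293). Each of the 3 calls depended on single libraries. The first was lost without wild-type library 3 or FIP1 library 1 or 2 (log2 fold change -3.65 to -3.43, adjusted p 0.0537 to 0.0599), the second without wild-type library 1 or 2 or FIP1 library 1, 2 or 3 (adjusted p 0.0596 to 0.117), and the third without wild-type library 2 or 3 or FIP2 library 1 or 3 (log2 fold change -2.89 to -2.43, adjusted p 0.0663 to 0.119).

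Cyp2c23 (chr19:44005022-44029208, - strand), an epoxygenase best known from the kidney, lies outside this cluster. Of the 11 comparisons it passed in 1, between the segments of wild type. It had 2.27, 1.44 and 3.34 CPM in wild-type distal and 0.242, 0 and 0.3 in wild-type proximal colon (log2 fold change -3.54 ± 0.86 SE, adjusted p = 0.00718). FIP1 knockout had 0.928, 0.66 and 0.679 distal and 0.0668, 0.286 and 0.0872 proximal, and FIP2 knockout 0.62, 1.62 and 0.735 distal and 0, 0.453 and 0 proximal CPM. The segments of FIP2 knockout gave log2 fold change -2.65 ± 0.87 SE, adjusted p = 0.065, or adjusted p = 0.0281 when the libraries were paired by number.

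**Figure D4:**
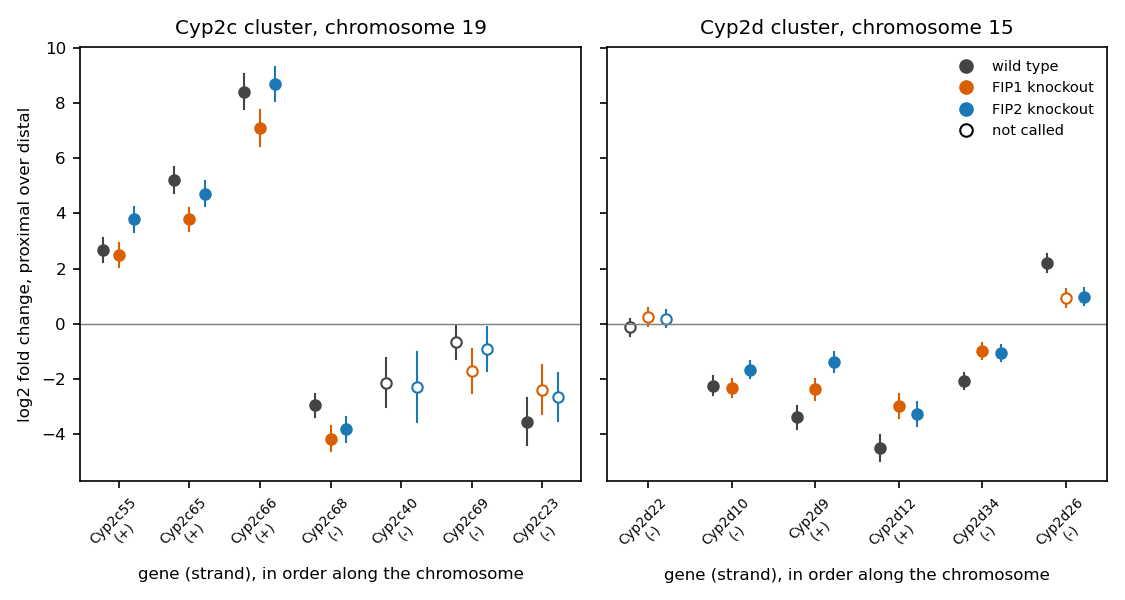
log2 fold change of proximal over distal colon (vertical axis, with bars of ± 1 SE) for the tested Cyp2c genes of chromosome 19 and Cyp2d genes of chromosome 15, in order along the chromosome with the strand in brackets, for wild type, FIP1 knockout and FIP2 knockout. Filled points passed the test and no point is drawn where a group had no count; the first 3 Cyp2c genes lie above 2 and the others below 0, and of the Cyp2d genes Cyp2d26 lies highest in wild type, at 2.20. Cyp2c23 lies apart from the other Cyp2c genes on the chromosome.

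The Cyp2d genes, which in other tissues oxidise many drugs and steroids, were mostly distal: 4 of the 6 tested were higher in the distal colon in all 3 genotypes. They summed to 911 ± 403 CPM in wild-type distal and 288 ± 48.1 CPM in wild-type proximal colon (SD, n = 3). Cyp2d34 (chr15:82615965-82620946, - strand), the most abundant, had 417, 455 and 860.1 CPM in wild-type, 548, 450.4 and 436 in FIP1 knockout and 418, 441 and 502 in FIP2 knockout distal colon. In the proximal colon it had 149, 122 and 142 CPM in wild type, 182, 370.5 and 174 in FIP1 knockout and 161, 266 and 228 in FIP2 knockout. All knockout libraries there lay above all wild-type ones, but edgeR's fit to all 18 libraries called it in no comparison of genotypes. DESeq2 called Cyp2d34 higher in FIP1 knockout proximal colon (log2 fold change 0.82, adjusted p = 0.0349), and so did limma on log2(FPKM + 0.1) (adjusted p = 0.0471). EdgeR without the filter on low counts called it higher in the proximal colon of FIP1 (adjusted p = 0.000461) and FIP2 knockout (adjusted p = 0.00969). It was 4.2-fold lower in proximal than in distal colon of wild type (log2 fold change -2.07 ± 0.30 SE, adjusted p = 5.46e-05). In the knockouts the segments differed by 1.97-fold in FIP1 (log2 fold change -0.98 ± 0.29 SE, adjusted p = 0.0447) and 2.08-fold in FIP2 (log2 fold change -1.06 ± 0.29 SE, adjusted p = 0.0226). The first was lost without FIP1 distal library 1, 2 or 3 or FIP1 proximal library 1 or 3 (log2 fold change -1.04 to -0.79, adjusted p 0.0773 to 0.234) and the second without FIP2 distal library 3 or FIP2 proximal library 1 or 3 (log2 fold change -1.09 to -0.88, adjusted p 0.0685 to 0.112). Cyp2d12 (chr15:82555072-82560403, + strand) had the same segment pattern, with 92.6, 92.2 and 233 CPM in wild-type distal and 6.06, 4.4 and 7.8 in wild-type proximal colon (log2 fold change -4.50 ± 0.47 SE, adjusted p = 1.38e-06). Its knockout levels were 89.5, 52.3 and 88.6 (FIP1 distal), 56.8, 146 and 86.1 (FIP2 distal), 6.28, 12.9 and 10.2 (FIP1 proximal) and 5.35, 14.3 and 10.3 (FIP2 proximal) CPM, and it did not pass between genotypes.

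Cyp2d10 and Cyp2d9 rose in FIP2 knockout, against the direction of most of the family. Cyp2d10 (chr15:82402846-82407195, - strand) had 21.1, 20.0 and 18.1 CPM in wild-type, 19.8, 17.2 and 21.2 in FIP1 knockout and 35.7, 52.9 and 81.2 in FIP2 knockout proximal colon, so all FIP2 libraries lay above all others. It rose 2.87-fold there (log2 fold change 1.52 ± 0.33 SE, adjusted p = 0.00416), and FIP1 knockout gave log2 fold change -0.02, adjusted p = 0.98. In the distal colon it had 93.5, 48.3 and 137 CPM in wild type, 105, 83.6 and 102 in FIP1 knockout and 117, 241 and 178 in FIP2 knockout, and FIP2 knockout passed while overlapping with wild type (log2 fold change 0.94 ± 0.31 SE, adjusted p = 0.0408). This distal call was lost without wild-type library 1 or 2 or FIP2 library 2 or 3 (log2 fold change 0.64 to 0.95, adjusted p 0.0766 to 0.189). Cyp2d9 (chr15:82433437-82456845, + strand), which hydroxylates testosterone in the liver, had 7.03, 3.52 and 3.67 CPM in wild-type, 7.89, 11.7 and 15.4 in FIP1 knockout and 17.9, 24.8 and 24.6 in FIP2 knockout proximal colon. Both knockouts lay above wild type: FIP2 by 4.7-fold (log2 fold change 2.23 ± 0.41 SE, adjusted p = 0.00136) and FIP1 by 2.46-fold (log2 fold change 1.30 ± 0.41 SE, adjusted p = 0.0399). The FIP1 call was lost without wild-type library 2 or 3 or FIP1 library 2 or 3 (log2 fold change 1.03 to 1.31, adjusted p 0.0700 to 0.159). Distal levels of Cyp2d9 were 49.2, 21.1 and 79.8 CPM in wild type, 62.3, 49.2 and 70.3 in FIP1 knockout and 39.9, 78.9 and 57.1 in FIP2 knockout, with no call. The segment difference of Cyp2d9 was 10.5-fold in wild type and 2.61-fold in FIP2 knockout, both lower in the proximal colon, and the latter was lost without FIP2 distal library 2 or FIP2 proximal library 1 or 3 (log2 fold change -1.46 to -1.11, adjusted p 0.0551 to 0.101). The difference of the FIP2 effect between segments was 2.0 ± 0.54 SE (adjusted p = 0.137), while DESeq2 gave adjusted p = 0.0215. Cyp2d10 and Cyp2d9 share 92.5% of their coding bases, which leaves the split of their reads uncertain.

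Cyp2d26 and Cyp2d22 fell in both segments of FIP1 knockout, and Cyp2d26 also in FIP2 knockout proximal colon. EdgeR's fit to all 18 libraries called neither between FIP1 and FIP2 knockout in either segment. With the compared libraries alone it called Cyp2d26 lower in FIP1 than in FIP2 distal colon (log2 fold change -1.07, adjusted p = 0.0495). Without the filter on low counts edgeR called both genes lower in FIP1 knockout in both segments. Cyp2d26 (chr15:82790101-82794294, - strand), the Cyp2d gene with a proximal maximum, had 96.6, 68.5 and 109 CPM in wild-type, 12.8, 25.7 and 11.7 in FIP1 knockout and 34.4, 27.2 and 46 in FIP2 knockout proximal colon. No knockout library reached the wild-type range, and it fell 5.49-fold in FIP1 (log2 fold change -2.46 ± 0.32 SE, adjusted p = 4.08e-05) and 2.54-fold in FIP2 knockout (log2 fold change -1.35 ± 0.31 SE, adjusted p = 0.00631). Distal levels were 13.5, 21.6 and 24.7 CPM in wild type, 10.9, 8.66 and 6.36 in FIP1 knockout and 12.6, 22.1 and 19.6 in FIP2 knockout. It fell in FIP1 knockout distal colon (log2 fold change -1.20 ± 0.32 SE, adjusted p = 0.0146), and FIP2 knockout gave log2 fold change -0.14, adjusted p = 0.801. The distal FIP1 call was lost without wild-type library 3 or FIP1 library 3 (log2 fold change -1.02, adjusted p 0.0692 to 0.0789). Proximal over distal was 4.59-fold in wild type (log2 fold change 2.20 ± 0.32 SE, adjusted p = 5.69e-05) and 1.98-fold in FIP2 knockout (log2 fold change 0.99 ± 0.31 SE, adjusted p = 0.0483), the latter lost without FIP2 distal library 1, 2 or 3 or FIP2 proximal library 1 or 3 (log2 fold change 0.77 to 1.16, adjusted p 0.0564 to 0.24). Cyp2d22 (chr15:82370527-82380260, - strand), expressed in many mouse tissues, had 22.6, 29 and 41.1 CPM in wild-type, 12.3, 5.36 and 9.2 in FIP1 knockout and 19.4, 18 and 15.7 in FIP2 knockout distal colon. Proximal colon had 31.2, 14.3 and 39.1 CPM in wild type, 12.2, 11.8 and 8.37 in FIP1 knockout and 18.2, 16.7 and 25.4 in FIP2 knockout. It fell 3.42-fold in distal (log2 fold change -1.77 ± 0.33 SE, adjusted p = 0.0011) and 2.63-fold in proximal FIP1 knockout colon (log2 fold change -1.39 ± 0.32 SE, adjusted p = 0.00726), with no overlap with wild type. FIP2 knockout did not pass in the fit to all 18 libraries (distal -0.80, adjusted p = 0.0838; proximal -0.49, adjusted p = 0.315). In the distal colon all FIP2 libraries nonetheless lay below all wild-type ones. EdgeR called that distal fall of Cyp2d22 with the compared libraries alone (adjusted p = 0.024) and without the filter on low counts (adjusted p = 0.00451).

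The Cyp3a genes of chromosome 5, drug and steroid oxidases of liver and intestine, were proximal genes, and the knockouts differed over 2 of them. Cyp3a25 (chr5:145977194-146009618, - strand) and Cyp3a44 (chr5:145773983-145805874, - strand) fell in FIP1 knockout proximal colon. In FIP2 knockout neither passed edgeR's test. The FIP2 libraries lay within or below the wild-type range for Cyp3a25, and on both sides of it for Cyp3a44. The 250 promoter bases of both genes are shown for this contrast, with AGGTCA, a half-site of nuclear receptors, in capitals on either strand.
Cyp3a25, chr5:146009619-146009868, - strand: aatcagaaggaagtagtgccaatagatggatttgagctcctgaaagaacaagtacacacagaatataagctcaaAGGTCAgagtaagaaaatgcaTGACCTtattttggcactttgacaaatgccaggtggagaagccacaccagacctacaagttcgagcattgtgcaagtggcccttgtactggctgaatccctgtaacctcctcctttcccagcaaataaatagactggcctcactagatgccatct
Cyp3a44, chr5:145805875-145806124, - strand: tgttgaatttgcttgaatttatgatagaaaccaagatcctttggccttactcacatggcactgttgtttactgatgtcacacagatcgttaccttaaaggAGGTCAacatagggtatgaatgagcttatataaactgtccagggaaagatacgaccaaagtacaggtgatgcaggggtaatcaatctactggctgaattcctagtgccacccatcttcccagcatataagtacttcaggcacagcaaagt

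Cyp3a25 held 2 AGGTCA half-sites, at -176 on its own strand and at -155 on the opposite strand, and Cyp3a44 held 1, at -150. AGGTCA stood in 15 of the 63 P450 promoters and in 14.0% of all, and 2 copies as a direct repeat with 1 base between them in 0 of the 63 and in 0.0338% of all. These 2 promoters were 55.6% identical.

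Cyp3a25 had 14.8, 20.4 and 18.6 CPM in wild-type, 0.401, 0.143 and 0.174 in FIP1 knockout and 8.33, 4.85 and 15 in FIP2 knockout proximal colon. Distal colon had 0 in wild type, 0.327, 0 and 0 in FIP1 and 0, 0 and 0.17 CPM in FIP2 knockout. It fell 74.2-fold in FIP1 knockout proximal colon (log2 fold change -6.21 ± 0.67 SE, adjusted p = 1.09e-05) and did not pass in FIP2 knockout (log2 fold change -0.93 ± 0.48 SE, adjusted p = 0.202), where libraries 1 and 2 lay below the wild-type range and limma on log2(FPKM + 1) gave adjusted p = 0.0481. The 2 knockouts differed directly in the proximal colon, FIP1 against FIP2 giving log2 fold change -5.28 ± 0.66 SE, adjusted p = 0.000241. Wild-type proximal counts were at least 266-fold above the distal ones, where 617 counts stood against 0 (adjusted p = 1.16e-06). FIP2 knockout proximal counts exceeded its distal ones 191-fold (95% counting interval 64.9 to 929.6), and in FIP1 knockout the segments did not pass (adjusted p = 0.829). Cyp3a44 had 8.16, 10.9 and 4.87 CPM in wild-type, 0.602, 0.859 and 0.131 in FIP1 knockout and 13.5, 2.07 and 13.2 in FIP2 knockout proximal colon, with FIP2 library 2 below and libraries 1 and 3 above the wild-type range. Distal levels were 0 to 0.103 CPM over the 9 libraries. It fell 15.7-fold in FIP1 knockout (log2 fold change -3.98 ± 0.72 SE, adjusted p = 0.00133), FIP2 knockout gave log2 fold change 0.28, adjusted p = 0.797, and FIP1 against FIP2 knockout gave log2 fold change -4.25 ± 0.72 SE, adjusted p = 0.00351. Its proximal counts exceeded the distal ones 343-fold (95% counting interval 61.1 to 13606) in wild type and 283-fold (95% counting interval 77.9 to 2346) in FIP2 knockout. FIP1 knockout proximal colon stood at least 7.19-fold above its distal colon (adjusted p = 0.0479), and this was lost without FIP1 distal library 1, 2 or 3 or FIP1 proximal library 1 or 2 (adjusted p 0.0914 to 0.155).

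Cyp3a13 (chr5:137892932-137921619, - strand), the most abundant Cyp3a gene here, fell in FIP2 knockout proximal colon. It had 509.6, 721 and 666 CPM in wild-type, 263, 595 and 222 in FIP1 knockout and 206, 155 and 189.5 in FIP2 knockout proximal colon. All FIP2 libraries lay below all wild-type ones, a 3.44-fold fall (log2 fold change -1.78 ± 0.36 SE, adjusted p = 0.00287), while FIP1 knockout did not pass (log2 fold change -0.81 ± 0.35 SE, adjusted p = 0.145). FIP1 against FIP2 knockout was not called there (0.97, adjusted p = 0.148). Distal levels were 224, 133 and 446 CPM in wild type, 198, 281 and 205 in FIP1 knockout and 144, 143 and 155 in FIP2 knockout with no call between genotypes. Wild-type proximal colon exceeded distal 2.36-fold (log2 fold change 1.24 ± 0.36 SE, adjusted p = 0.0214), and this was lost without wild-type distal library 1 or 2 or wild-type proximal library 2 (log2 fold change 0.91 to 1.14, adjusted p 0.0568 to 0.107). Cyp3a11 (chr5:145854426-145879964, - strand), the main Pxr-responsive Cyp3a gene of the liver, had no distal count in any genotype. Its proximal levels were 0.808, 1.32 and 0.975 CPM in wild-type, 0, 0 and 0.0872 in FIP1 knockout and 0.153, 0 and 0.174 in FIP2 knockout colon. It fell 26.1-fold (95% counting interval 6.7 to 224) in FIP1 knockout (log2 fold change -4.53 ± 1.02 SE, adjusted p = 0.0105), and this was lost without FIP1 library 1 (log2 fold change -4.10, adjusted p = 0.0543). FIP2 knockout gave log2 fold change -3.14 ± 0.90 SE, adjusted p = 0.0337, lost without wild-type library 1, 2 or 3 or FIP2 library 1, 2 or 3 (log2 fold change -3.69 to -2.58, adjusted p 0.0611 to 0.117). DESeq2 gave adjusted p = 0.138 for it, and edgeR without the filter on low counts 0.0823. Wild-type proximal colon stood at least 15.1-fold above the distal colon (adjusted p = 0.00303). Cyp3a11 and Cyp3a44 share 94.9% of their coding bases, so the 35 wild-type counts of Cyp3a11 could include reads of Cyp3a44. Beside these proximal genes, the 7 small-intestine enterocyte markers (5 tested) summed to 1531 to 2147 CPM in wild-type, 817 to 1196 in FIP1 knockout and 897 to 1157 in FIP2 knockout proximal colon, and to 129 to 433 CPM in the distal libraries, with none of the 7 at 0 over all libraries. Their part in the Cyp3a, Cyp4b1 and Cyp2c results was not tested.

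In family 4, Cyp4b1 (chr4:115624725-115647723, - strand), a fatty acid hydroxylase that also activates plant and fungal toxins, was a proximal gene that fell in both knockouts. It had 133, 105 and 217 CPM in wild-type, 5.88, 7.23 and 1.74 in FIP1 knockout and 15.4, 6.15 and 32.4 in FIP2 knockout proximal colon. All knockout libraries lay below all wild-type ones, by 31.4-fold in FIP1 (log2 fold change -4.97 ± 0.56 SE, adjusted p = 9.51e-06) and 8.4-fold in FIP2 knockout (log2 fold change -3.07 ± 0.51 SE, adjusted p = 0.000588). FIP1 against FIP2 knockout missed the threshold (log2 fold change -1.90 ± 0.52 SE, adjusted p = 0.0542). Its distal levels were 0.307, 0.865 and 1.34 CPM in wild type, 0.546, 1.15 and 0.247 in FIP1 knockout and 0.31, 0.0899 and 0.113 in FIP2 knockout. Proximal over distal was 182-fold in wild type (log2 fold change 7.51 ± 0.68 SE, adjusted p = 2.56e-07), 102-fold in FIP2 knockout and 7.81-fold in FIP1 knockout (log2 fold change 2.96 ± 0.70 SE, adjusted p = 0.0116), the last of these lost without FIP1 distal library 1 or 3 or FIP1 proximal library 2 (log2 fold change 2.57 to 2.87, adjusted p 0.0621 to 0.0843). The difference of the FIP1 effect between segments was -4.54 ± 1.09 SE (adjusted p = 0.0648). It passed with DESeq2 (adjusted p = 0.00451), with a replicate block (0.000522) and with limma on log2(FPKM + 1) (0.00364) or log2(FPKM + 0.1) (0.0307).

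The Cyp4f genes, which hydroxylate leukotrienes and long fatty acids, gave smaller fold changes: of the 6 tested, Cyp4f13 passed in both segments of both knockouts. Cyp4f13 (chr17:32924688-32947402, - strand) had 61.7, 75.7 and 96.9 CPM in wild-type, 52.3, 44.8 and 39.5 in FIP1 knockout and 35.4, 35.6 and 43.6 in FIP2 knockout distal colon. Proximal colon had 84.6, 65 and 108 CPM in wild type, 59.1, 65.6 and 47.6 in FIP1 knockout and 42.3, 42.5 and 46.4 in FIP2 knockout. It fell in FIP2 knockout in both segments (distal log2 fold change -1.03 ± 0.19 SE, adjusted p = 0.00117; proximal log2 fold change -0.98 ± 0.19 SE, adjusted p = 0.00239). In FIP1 knockout it fell in the distal (log2 fold change -0.78 ± 0.19 SE, adjusted p = 0.00923) and, with overlapping libraries, in the proximal colon (log2 fold change -0.58 ± 0.19 SE, adjusted p = 0.0487). The distal FIP1 call was lost without wild-type library 3 or FIP1 library 3 (log2 fold change -0.68 to -0.59, adjusted p 0.054 to 0.0629). The proximal one was lost without wild-type library 1 or 3 or FIP1 library 1 or 3 (log2 fold change -0.59 to -0.38, adjusted p 0.0979 to 0.238) and with relative log expression normalization (adjusted p = 0.0503). Cyp4f16 (chr17:32536558-32551798, + strand) had 111, 106 and 227 CPM in wild-type distal, 60.0, 55.4 and 60.5 in FIP1 and 49.4, 81.1 and 77.1 in FIP2 knockout distal colon. It fell 2.52-fold in FIP1 (log2 fold change -1.33 ± 0.25 SE, adjusted p = 0.00111) and 2.14-fold in FIP2 knockout (log2 fold change -1.09 ± 0.24 SE, adjusted p = 0.00447), with no overlap with wild type. Its proximal levels were 65.2, 65.6 and 58.6 CPM in wild type, 44.6, 54.9 and 48.2 in FIP1 knockout and 37.4, 55.7 and 56.2 in FIP2 knockout, with no call between genotypes. In wild type they were below the distal ones (log2 fold change -1.23 ± 0.25 SE, adjusted p = 0.00153).

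Cyp4f14 (chr17:32905071-32917342, - strand), a leukotriene B4 hydroxylase, had 308, 256 and 291 CPM in wild-type, 116, 201 and 133 in FIP1 knockout and 90.7, 164 and 152 in FIP2 knockout proximal colon. In the distal colon it had 108, 93.9 and 262 CPM in wild type, 157, 197 and 109.8 in FIP1 knockout and 83.1, 136 and 175 in FIP2 knockout. FIP2 knockout fell in the proximal colon (log2 fold change -1.07 ± 0.35 SE, adjusted p = 0.046), and this was lost without wild-type library 1 or 3 or FIP2 library 1, 2 or 3 (log2 fold change -1.22 to -0.84, adjusted p 0.0658 to 0.182). FIP1 knockout did not pass there (log2 fold change -0.93 ± 0.35 SE, adjusted p = 0.0866), although its libraries too lay below the wild-type range. Cyp4f17 (chr17:32506462-32528894, + strand) had, in the distal colon, 4.36, 3.32 and 6.22 CPM in wild type, 3.55, 1.98 and 4.26 in FIP1 knockout and 1.91, 2.29 and 1.92 in FIP2 knockout. Proximal values of Cyp4f17 were 3.15, 6.04 and 4.72 CPM in wild type, 2.34, 2.08 and 2.79 in FIP1 knockout and 2.98, 2.01 and 2.79 in FIP2 knockout. It fell in FIP2 knockout distal colon (log2 fold change -1.18 ± 0.33 SE, adjusted p = 0.0187), and this was lost without wild-type library 3 or FIP2 library 1 or 3 (log2 fold change -1.13 to -0.91, adjusted p 0.0572 to 0.114). Cyp4f40 (chr17:32659410-32676687, + strand) had, in the distal colon, 46.9, 45 and 47.7 CPM in wild type, 76.2, 58.6 and 69.1 in FIP1 knockout and 58, 51.7 and 77.8 in FIP2 knockout. Proximal colon had 93.2, 63.1 and 112 CPM in wild type, 105, 109.8 and 91.4 in FIP1 knockout and 62, 61.5 and 67.7 in FIP2 knockout. It was higher in proximal than distal colon of wild type (log2 fold change 0.95 ± 0.19 SE, adjusted p = 0.00124) and rose in FIP1 knockout distal colon (log2 fold change 0.55 ± 0.18 SE, adjusted p = 0.0486), the latter lost without wild-type library 1, 2 or 3 or FIP1 library 1, 2 or 3 (log2 fold change 0.46 to 0.62, adjusted p 0.0553 to 0.158). Cyp4v3 (chr8:45304944-45333216, - strand), a fatty acid hydroxylase with a role in the retina, ranged from 5.79 to 15.7 CPM in distal and 7.37 to 16.3 CPM in proximal libraries and passed in no comparison. The other tested genes without a call were Cyp2j9, Cyp2r1, Cyp2t4, Cyp4f18 and Cyp4x1, whose highest group means lay between 1.20 and 2.64 CPM.

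Several single genes of family 2 changed in both knockouts. Cyp2s1 (chr7:25802475-25816913, - strand), an epithelial P450 that responds to Ahr ligands, fell in both segments of both knockouts. It had 82.5, 76.5 and 105 CPM in wild-type, 45.2, 33.1 and 35.8 in FIP1 knockout and 41.2, 44 and 63 in FIP2 knockout distal colon. The proximal values were 115, 68.5 and 104 CPM in wild type, 61, 58.5 and 54.3 in FIP1 knockout and 33.9, 45.8 and 51.4 in FIP2 knockout. In neither segment did a knockout library reach the wild-type range. The falls were 2.31-fold in FIP1 distal (log2 fold change -1.21 ± 0.21 SE, adjusted p = 0.000682) and 2.19-fold in FIP2 proximal colon (log2 fold change -1.13 ± 0.21 SE, adjusted p = 0.00159). FIP1 proximal colon gave log2 fold change -0.73 ± 0.21 SE, adjusted p = 0.0262, lost without wild-type library 1 or 3 or FIP1 library 1, 2 or 3 (log2 fold change -0.75 to -0.57, adjusted p 0.0628 to 0.126). FIP2 distal colon gave log2 fold change -0.84 ± 0.21 SE, adjusted p = 0.00971, lost without wild-type library 3 or FIP2 library 1 (log2 fold change -0.72 to -0.69, adjusted p 0.0513 to 0.0612). Cyp2j6 (chr4:96516138-96553661, - strand), an epoxygenase of fatty acids in the gut, rose in the distal colon of both knockouts. Its distal levels were 43.5, 49.8 and 39.5 CPM in wild type, 73.1, 85.5 and 66.8 in FIP1 and 65.8, 85.1 and 90.4 in FIP2 knockout, all knockout libraries above all wild-type ones. The rise was 1.82-fold in FIP2 (log2 fold change 0.86 ± 0.21 SE, adjusted p = 0.00856) and 1.7-fold in FIP1 knockout (log2 fold change 0.76 ± 0.21 SE, adjusted p = 0.0186), the FIP1 call lost without wild-type library 1 or 3 or FIP1 library 2 (log2 fold change 0.64 to 0.73, adjusted p 0.0616 to 0.0905). Proximal levels were 113, 182 and 117 CPM in wild type, 162, 198 and 131 in FIP1 knockout and 113, 159 and 175 in FIP2 knockout with no call between genotypes, and proximal exceeded distal colon 3.1-fold in wild type (log2 fold change 1.63 ± 0.22 SE, adjusted p = 2.45e-05).

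Cyp2u1 (chr3:131288441-131303227, - strand), a fatty acid hydroxylase, fell in the distal colon of both knockouts from 6.02, 3.75 and 6.49 CPM in wild type to 1.15, 0.742 and 0.803 in FIP1 and 0.413, 0.629 and 0.678 in FIP2 knockout. These were falls of 5.95-fold (log2 fold change -2.57 ± 0.46 SE, adjusted p = 0.000787) and 9.35-fold (log2 fold change -3.22 ± 0.47 SE, adjusted p = 0.000122). Its proximal levels were 1.29, 1.98 and 0.525 CPM in wild type, 1.07, 0.859 and 0.479 in FIP1 knockout and 0.459, 0.841 and 0.349 in FIP2 knockout, below the distal ones in wild type (log2 fold change -2.13 ± 0.46 SE, adjusted p = 0.0026), with no call between genotypes. Cyp2w1 (chr5:139352617-139357033, + strand), known from the fetal gut and colon tumours, was lower in the proximal colon of both knockouts. Proximal levels were 7.27, 4.83 and 15.8 CPM in wild type, 1.00, 0.644 and 0.959 in FIP1 and 2.14, 1.62 and 1.86 in FIP2 knockout, with no overlap. It fell 10.6-fold in FIP1 (log2 fold change -3.41 ± 0.50 SE, adjusted p = 0.000133) and 4.99-fold in FIP2 knockout (log2 fold change -2.32 ± 0.47 SE, adjusted p = 0.00267). Distal levels were 2.4, 2.6 and 0.869 CPM in wild type, 2.24, 1.4 and 2.9 in FIP1 knockout and 0.465, 1.21 and 1.19 in FIP2 knockout, with no call (FIP1 0.17, adjusted p = 0.857). In wild type, proximal exceeded distal colon 4.78-fold (log2 fold change 2.26 ± 0.46 SE, adjusted p = 0.00188).

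Cyp2f2 (chr7:27119909-27133660, + strand), which oxidises naphthalene in the airway epithelium, fell in the distal and rose in the proximal colon of FIP2 knockout. It had 17.1, 13.2 and 14 CPM in wild-type, 4.75, 1.9 and 1.91 in FIP1 knockout and 1.81, 3.37 and 5.43 in FIP2 knockout distal colon. The distal falls were 5.11-fold in FIP1 (log2 fold change -2.35 ± 0.46 SE, adjusted p = 0.00167) and 4.19-fold in FIP2 knockout (log2 fold change -2.07 ± 0.45 SE, adjusted p = 0.00359), with no overlap with wild type. Proximal levels were 0, 0.11 and 0.075 CPM in wild type, 0.201, 0.215 and 0.0872 in FIP1 and 0.382, 1.94 and 1.16 in FIP2 knockout. FIP2 knockout exceeded wild type 20.9-fold (95% counting interval 5.53 to 177) there, on 55 against 2 counts (log2 fold change 4.18 ± 0.89 SE, adjusted p = 0.0042). Wild-type distal colon exceeded proximal 259-fold (95% counting interval 71.4 to 2144), and the segments also differed in FIP1 (log2 fold change -4.13 ± 0.64 SE, adjusted p = 0.000301) and FIP2 knockout (log2 fold change -1.57 ± 0.49 SE, adjusted p = 0.0477), where the libraries overlapped. The FIP2 segment call was lost without FIP2 distal library 2 or 3 or FIP2 proximal library 1 or 3 (log2 fold change -1.61 to -1.14, adjusted p 0.0897 to 0.255). Cyp2a12 (chr7:27029081-27037375, + strand), a steroid hydroxylase of the liver, had 0.922, 1.15 and 0.936 CPM in wild-type distal colon, 0.164, 0 and 0 in FIP1 knockout distal colon and 0 in all other libraries. It was at least 19.7-fold lower in FIP2 than in wild-type distal colon (adjusted p = 0.00391) and at least 11.6-fold lower in proximal than in distal colon of wild type (adjusted p = 0.00764). FIP1 knockout distal colon fell 15.5-fold (95% counting interval 4.98 to 78.1) on 3 against 45 counts (log2 fold change -3.85 ± 0.97 SE, adjusted p = 0.0204), and this was lost without wild-type library 1, 2 or 3 or FIP1 library 2 or 3 (log2 fold change -3.93 to -3.32, adjusted p 0.0501 to 0.0923). DESeq2 gave adjusted p = 0.678 for that FIP1 fall and 0.512 for the wild-type segments. Beside these distal genes, the 6 hepatocyte markers (3 tested, Serpina1a at 0 in every library) summed to 26.4 to 59.4 CPM in wild-type, 9.33 to 15.6 in FIP1 knockout and 14.2 to 25.7 in FIP2 knockout distal colon, and to 7.5 to 17.9, 1.43 to 2.31 and 2.09 to 3.69 CPM in the proximal colon of these genotypes. Their part in the Cyp2a12, Cyp2f2 and Cyp3a11 results was not tested.

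In family 1, Cyp1b1 (chr17:79706953-79715041, - strand), an oestradiol hydroxylase and Ahr target, was the tested gene. It had 0.922, 0.144 and 0.0669 CPM in wild-type, 0.491, 0.577 and 0.865 in FIP1 knockout and 0, 0.404 and 0.339 in FIP2 knockout distal colon, with no call. In the proximal colon it had 0.97, 6.92 and 0.15 CPM in wild type, 0.134, 0.0716 and 0.305 in FIP1 and 0, 0.0647 and 0 in FIP2 knockout, so wild-type library 2 carried most of the wild-type level. The test passed for both knockouts (FIP1 log2 fold change -3.78 ± 1.13 SE, adjusted p = 0.0318; FIP2 log2 fold change -6.46 ± 1.51 SE, adjusted p = 0.00783). On 77 against 1 counts the FIP2 level was lower 101-fold (95% counting interval 17.6 to 4047), and the FIP1 libraries overlapped with wild type. The FIP1 call was lost without wild-type library 2 or FIP1 library 1, 2 or 3 (log2 fold change -4.57 to -1.56, adjusted p 0.063 to 0.41), and the FIP2 call without wild-type library 2 (log2 fold change -4.24, adjusted p = 0.0522). The same wild-type library stood apart in the 6 forebrain neuron markers (5 tested), at 92.6 CPM against 11.9 and 14.8 in the other wild-type proximal libraries. It was also highest of the 3 in 9 markers of enteric neurons and glia (60.9 CPM against 19.1 and 21.6), 9 of macrophages and dendritic cells (51.4 against 8.32 and 11.7) and 8 of fibroblasts (52.7 against 16.6 and 24.2). In knockout proximal colon the forebrain markers summed to 0.286 to 4.01 CPM and the enteric ones to 4.3 to 13.1 CPM. Both lay below every wild-type proximal library. The macrophage and fibroblast sums overlapped between wild type and knockouts. The part of these marker differences in the Cyp1b1 result was not tested.

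**Figure D5:**
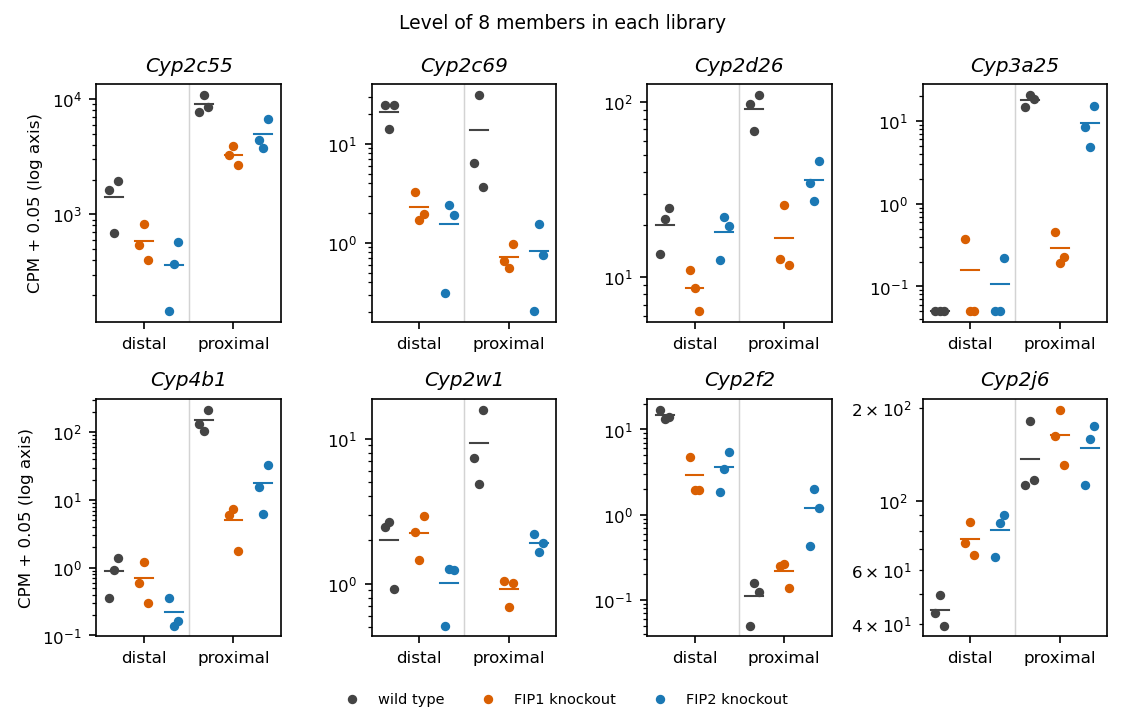
Level of 8 P450 genes in each library, as CPM + 0.05 on log axes, distal colon on the left and proximal on the right of each panel, with a horizontal line at each group mean (n = 3). Cyp2c55, Cyp2c69, Cyp2d26, Cyp4b1 and Cyp2w1 show all proximal knockout points below the wild-type points. For Cyp3a25 the FIP1 points and 2 of the 3 FIP2 points lie below them, and for Cyp2f2 the FIP2 proximal points lie above them.

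The knockouts were also compared with each other and between segments. In the distal colon edgeR's fit to all 18 libraries called 0 of the 36 tested genes between FIP1 and FIP2 knockout, where 1.22% of all tested genes were higher and 0.644% lower in FIP1. At an unadjusted p under 0.05, 4 passed. DESeq2 called 1, Cyp2d26 (adjusted p = 0.0382), as did edgeR with the compared libraries alone (adjusted p = 0.0495). In the proximal colon edgeR called 5 genes lower in FIP1 than in FIP2 knockout and 0 higher, against 1.42% and 1.33% of all tested genes. DESeq2 also called Cyp2d26 lower (adjusted p = 0.0176) and Cyp4f40 higher in FIP1 knockout (0.0148), and Cyp4f40 passed too with the compared libraries alone (0.0276). The 5 were Cyp3a25 and Cyp3a44, given above, Cyp2c66 (log2 fold change -1.36 ± 0.34 SE, adjusted p = 0.0368), Cyp2d10 (log2 fold change -1.54 ± 0.32 SE, adjusted p = 0.013) and Cyp2f2 (log2 fold change -2.85 ± 0.68 SE, adjusted p = 0.0300). Cyp2c66 lost this call without FIP1 library 1, 2 or 3 or FIP2 library 2 or 3 (log2 fold change -1.43 to -1.15, adjusted p 0.0932 to 0.16). Cyp2d10 lost it without FIP1 library 2 or FIP2 library 3 (log2 fold change -1.46 to -1.19, adjusted p 0.0762 to 0.0804). Cyp2f2 lost it without FIP1 library 1, 2 or 3 or FIP2 library 2 or 3 (log2 fold change -3.06 to -2.29, adjusted p 0.0732 to 0.144). The FIP1 effect differed between segments for 2 genes, Cyp2w1 and Cyp3a25, where 0.644% of all tested genes did, and the FIP2 effect for 1, Cyp2f2, against 0.328%. Cyp2w1 gave a proximal minus distal effect of -3.58 ± 0.68 SE on the log2 scale (adjusted p = 0.0178), lost without FIP1 proximal library 3 (log2 fold change -3.66, adjusted p = 0.0519). Cyp2f2 gave 6.24 ± 0.97 SE (adjusted p = 0.00483) for FIP2, kept without any single library. Cyp3a25, with no wild-type distal count, gave adjusted p = 0.0293, lost without wild-type distal library 1, 2 or 3 or FIP1 distal library 1 or FIP1 proximal library 3 (adjusted p 0.0523 to 1.000).

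The genes that serve or regulate P450 enzymes were taken from lists written from general knowledge with earlier results of these data known, and are given as counts. Of 16 genes for electron supply and haem synthesis, 2 rose and 4 fell in FIP1 distal, 2 and 5 in FIP1 proximal, 2 and 3 in FIP2 distal and 0 and 4 in FIP2 proximal colon. Of all tested genes, 8.84%, 6.7%, 9.13% and 7.6% rose and 7.47%, 6.89%, 9.38% and 7.07% fell in these 4 comparisons, in the same order, and the counts of this and the next lists are set against these shares. The rising counts lie near them and nothing is read from those. Alad, an early step of haem synthesis, rose in FIP1 knockout (distal log2 fold change 1.84 ± 0.22 SE, adjusted p = 1.43e-05; proximal log2 fold change 1.72 ± 0.22 SE, adjusted p = 3.22e-05). Por, the reductase that feeds all these enzymes, fell in FIP2 knockout (distal log2 fold change -0.86 ± 0.23 SE, adjusted p = 0.0147; proximal log2 fold change -0.75 ± 0.23 SE, adjusted p = 0.0353), each lost without single libraries. The distal call was lost without wild-type library 3 or FIP2 library 1 or 2 (log2 fold change -0.81 to -0.67, adjusted p 0.0562 to 0.0912). The proximal one was lost without wild-type library 1 or 3 or FIP2 library 1 or 2 (log2 fold change -0.69 to -0.59, adjusted p 0.111 to 0.154). Hmox1, which degrades haem, fell in FIP2 knockout proximal colon (log2 fold change -1.81 ± 0.35 SE, adjusted p = 0.00185). Of 23 tested regulators (25 listed), 3 rose and 6 fell in FIP1 distal, 1 and 6 in FIP1 proximal, 3 and 7 in FIP2 distal and 1 and 8 in FIP2 proximal colon. Dbp, a circadian activator of P450 genes, fell in all 4 comparisons, by 2.21 and 1.81 in FIP1 and 3.16 and 2.42 in FIP2 knockout on the log2 scale (distal and proximal). Ppara fell in the proximal colon of FIP1 (log2 fold change -1.90 ± 0.26 SE, adjusted p = 7.17e-05) and FIP2 knockout (log2 fold change -1.43 ± 0.26 SE, adjusted p = 0.00114). Of 12 tested Ppar targets outside these families, 0 rose in any of the 4 comparisons and 4, 7, 7 and 10 fell in FIP1 distal, FIP1 proximal, FIP2 distal and FIP2 proximal colon, where 7.47%, 6.89%, 9.38% and 7.07% of all tested genes fell. Pdk4, which slows glucose oxidation, was among them (FIP1 proximal log2 fold change -2.67 ± 0.34 SE, adjusted p = 3.22e-05). In FIP1 distal colon the calls of Acot2 and Cpt1a were each lost without wild-type library 1 or FIP1 library 1, 2 or 3. Both were also lost in edgeR without the filter on low counts (adjusted p = 0.102 for Acot2 and 0.0562 for Cpt1a).

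Of 8 Pxr and Car targets outside these families, 1 rose and 3 fell in FIP1 distal, 0 and 5 in FIP1 proximal, 0 and 3 in FIP2 distal and 0 and 6 in FIP2 proximal colon, against the shares of all tested genes given above (6.7% to 9.13% rising and 6.89% to 9.38% falling). Abcc2, a conjugate exporter, fell in all 4 comparisons (FIP1 distal log2 fold change -2.65 ± 0.44 SE, adjusted p = 0.000401; FIP2 distal log2 fold change -3.14 ± 0.45 SE, adjusted p = 9.36e-05), and so did the drug exporter Abcb1a (FIP1 proximal log2 fold change -1.78 ± 0.30 SE, adjusted p = 0.000501). Ugt1a1, which glucuronidates bilirubin and drugs, fell in the proximal colon (FIP1 log2 fold change -2.09 ± 0.32 SE, adjusted p = 0.000242; FIP2 log2 fold change -1.31 ± 0.32 SE, adjusted p = 0.00932). Of 3 tested Ahr targets outside these families (5 listed), 0 rose and 1 fell in FIP1 distal, 0 and 2 in FIP1 proximal, 1 and 1 in FIP2 distal and 0 and 2 in FIP2 proximal colon, too few genes to set against those shares. Nqo1, a quinone reductase, fell in the proximal colon of FIP1 (log2 fold change -1.13 ± 0.22 SE, adjusted p = 0.00226) and FIP2 knockout (log2 fold change -1.12 ± 0.22 SE, adjusted p = 0.00266). Ephx2, the epoxide hydrolase that acts on the fatty acid epoxides made by Cyp2c and Cyp2j enzymes, fell in FIP2 distal (log2 fold change -1.22 ± 0.22 SE, adjusted p = 0.000723) and in proximal FIP1 (log2 fold change -1.07 ± 0.21 SE, adjusted p = 0.00224) and FIP2 knockout colon (log2 fold change -1.26 ± 0.22 SE, adjusted p = 0.000754). In FIP1 distal colon it gave log2 fold change -0.85 ± 0.21 SE, adjusted p = 0.0107, lost without wild-type library 3 (log2 fold change -0.59, adjusted p = 0.0826). Fmo5, a flavin monooxygenase of the gut, fell in all 4 comparisons, from log2 fold change -1.45 ± 0.34 SE, adjusted p = 0.00677 in FIP1 distal to log2 fold change -2.07 ± 0.33 SE, adjusted p = 0.000338 in FIP1 proximal colon. Of the 19 P450 genes of other families, 5 were tested. Cyp51, a cholesterol synthesis enzyme, rose in all 4 comparisons (FIP1 distal log2 fold change 1.30 ± 0.18 SE, adjusted p = 5.78e-05; FIP2 proximal log2 fold change 0.91 ± 0.17 SE, adjusted p = 0.00197), and Cyp27a1, the mitochondrial sterol hydroxylase, fell in proximal FIP1 (log2 fold change -1.66 ± 0.34 SE, adjusted p = 0.00291) and FIP2 knockout (log2 fold change -1.60 ± 0.34 SE, adjusted p = 0.00401).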

How the data were processed

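Gene-level RNA-seq values of 18 libraries were used. Whole-number read counts per gene and FPKM (counts per gene length and library size), both made by the authors, were deposited as separate tables. Per the submitters' processing notes the tools included HTSeq 0.6.1, STAR 2.5, DESeq2 and TopHat, with GRCm38 and mm10 as builds and no role or order given. Whether the library or the counting kept the strand is not given in the sources used here, so overlapping and antisense genes are uncertain. The 76 genes and all gene lists were chosen with earlier results of these data known.

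Counts were tested with edgeR 4.0.16 (R 4.3.3; TMM normalization, filterByExpr, quasi-likelihood F-test) in 1 fit to all 18 libraries, with 11 comparisons and Benjamini-Hochberg adjustment over the 17692 tested genes within each comparison. The SE of a fold change was its size divided by the square root of F, and none is given where a group had no count. CPM used the TMM-adjusted library sizes. The text names members called in at least 1 comparison or with a group mean of at least 5 CPM, 31 genes in all. Intervals of count ratios are exact at 95%. The script was tested on simulated counts. Alternatives were other normalization and filters, DESeq2 1.42.0, only the libraries compared, the replicate number as a block, limma 3.58.1 on log2(FPKM + 1) or log2(FPKM + 0.1) with a mean FPKM of at least 0.1 or without that filter, and leaving out each library.

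Replicate numbers recur in every group. Same-numbered distal and proximal libraries deviated together in FIP2 knockout (correlations 0.355, 0.200 and 0.242 over genes), so the numbers may pair the segments there. The main fit did not use this pairing. The replicate block, an alternative, paired the segments by number within every genotype for comparisons that involve both segments. For comparisons between genotypes within a segment it fitted the number as a term shared by all groups. In FIP1 knockout the same-numbered correlations (0.200, 0.175 and 0.0683) lay above those of different numbers (-0.172 to -0.00297), so the numbers may pair the segments there too. In wild type (-0.0816, 0.110 and 0.169) and between genotypes, not every same-numbered pair was over 0.1. Promoters came from RefSeq on GRCm38.p6, where 63 of the 76 genes had one.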

Additional observations from a re-analysis of the deposited data

Results flagged for a closer look

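For 3 P450 genes the effect of a knockout differed between the segments in edgeR's test of the difference itself. Cyp2w1 gave a proximal minus distal difference of the FIP1 effect of -3.58 ± 0.68 SE on the log2 scale, with all FIP1 proximal libraries below wild type and overlapping distal ones. Cyp3a25 gave -10.29 for FIP1 as a fitted value, which depends on the prior count because wild-type distal libraries had no count. Cyp2f2 gave 6.24 ± 0.97 SE for FIP2, lower than wild type in 3 of 3 distal and higher in 3 of 3 proximal libraries.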

How the results depend on the processing

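Of the 114 changes called among these genes, 76 passed without any single library and 38 were lost without at least 1, and none reversed under any alternative run. Not every setting tested all of them: DESeq2 kept 109 and lost 4, the compared libraries alone kept 101 and lost 7, no filter on low counts and relative log expression normalization each kept 113 and lost 1, limma on log2(FPKM + 1) kept 86 and lost 22, on log2(FPKM + 0.1) 87 and 21, and without its filter 88 and 26, while a minimum of 1 CPM in 3 libraries kept 106 and leaving out mitochondrially encoded genes 114, both losing 0. The number of genes called in FIP1 knockout proximal colon was 16, and 9 with limma on log2(FPKM + 1). Between FIP1 and FIP2 knockout it was 0 in the distal colon, against 5 without the filter, 1 with the compared libraries alone and 1 with DESeq2, and 5 in the proximal colon, against 12 without the filter. For the difference of the FIP1 effect between segments it was 2, against 13 without the filter and 4 with limma without a filter, and for FIP2 it was 1, against 7 without the filter, 2 with DESeq2, 2 with limma on log2(FPKM + 1) and 4 with limma without a filter. The cause was not tested. Leaving out 1 library gave 7 to 12 genes for FIP1 distal (7 without wild-type library 3), 10 to 14 for FIP1 proximal (10 without FIP1 library 1 or 3), 2 to 5 for FIP1 against FIP2 proximal (3 without FIP1 library 1, 2 or 3, and 2 without FIP2 library 3), 9 to 15 for the segments of FIP2 knockout (9 without proximal library 3), 0 to 2 for the FIP1 difference (0 without FIP1 proximal library 3, and 1 without FIP1 distal library 1 or wild-type distal library 1, 2 or 3) and 1 to 2 for the FIP2 difference (2 without wild-type distal or proximal library 2).

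With a replicate block, 4 of the 114 calls were lost: Cyp2c55 (adjusted p = 0.0534) and Cyp2c65 (0.0709) in FIP1 distal, and Cyp1b1 (0.0828) and Cyp4f13 (0.0627) in FIP1 proximal colon. The block gave 2 genes instead of 1 for the FIP2 difference between segments, adding Cyp2d9 (adjusted p = 0.0209). It also added Cyp4b1 for the FIP1 difference (0.000522), Cyp4f40 between FIP1 and FIP2 proximal colon (0.0366), Cyp4f14 between wild-type segments (0.00409), Cyp2s1 (0.0132) and Cyp4f40 (0.0259) between FIP1 segments and Cyp2c23 between FIP2 segments (0.0281). Cyp2a12, Cyp2c40, Cyp3a11, Cyp3a25 and Cyp3a44 had 0 counts in some groups, where the floor of 3 counts limits what can be shown.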
